A study of Arabidopsis thaliana with 9 samples.

Results

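Seedlings of Arabidopsis thaliana labelled as the mutant mrpl1-1 were compared with wild type, with 3 biological replicates in each group and thus 6 of the 9 libraries of the series. Both groups were of the Col-0 accession and grew for 14 days on solid Murashige and Skoog medium, after which liquid medium without drug was added for 12 h in the light. The third group of the series was wild type given 25 µg/ml doxycycline for the same 12 h. Whole seedlings were used, and polyA-enriched RNA was sequenced on an Ion Torrent Proton instrument. The loci described are those with a mean of at least 1 FPKM over the 6 libraries, which were 18994 of the 33557 loci in the deposited table. FPKM scales the fragments of a transcript by its length and by the mapped total of the library. Differences were taken on the log2(FPKM + 1) scale as mrpl1-1 minus wild type, so they understate the change of loci with low FPKM. The sources used here do not describe the allele or say whether the mutant was 1 line or several.

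Ribosomes inside plant mitochondria make a small set of proteins, mainly subunits of the respiratory chain and ATP synthase, while most mitochondrial proteins are imported. A disturbance of mitochondria is relayed to the nucleus by retrograde signalling, in which membrane-anchored NAC transcription factors such as ANAC017 and ANAC013 move to the nucleus and bind the mitochondrial dysfunction motif upstream of genes such as AOX1A. When carbohydrate or energy runs low, plants also turn on a set of dark-induced and starvation genes under the kinase SnRK1.

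Estimated depth was lowest in wild-type replicate 3 (3.03 M reads on genes) and mrpl1-1 replicate 1 (3.17 M) and highest in wild-type replicate 1 (7.86 M). A single read on 1 kb of transcript was then worth between 0.134 and 0.357 FPKM. The first principal component held 32.3% of the variance and was led by mrpl1-1 replicate 2, and the second held 26.1% and was led by wild-type replicate 3. Only mrpl1-1 replicate 2 differed from the other libraries in a way that fell with transcript length (Spearman rho -0.32 across loci, against 0.04 to 0.16 in the other 5, a description across loci that are not independent). Photosynthesis transcripts, which mark green tissue, summed to between 74746 and 77939 FPKM in wild type and between 71322 and 124834 FPKM in mrpl1-1. Root markers, 18 of 19 of them measured, summed to between 1304 and 1667 FPKM in wild type and between 1426 and 1917 FPKM in mrpl1-1. No marker of either tissue was listed at 0 in all 6 libraries. In whole seedlings, fewer cells of a type and less RNA per cell cannot be told apart.

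MRPL1 (AT2G42710), the gene the mutant is named for, is annotated in the L1p/L10e family of ribosomal proteins. Wild-type libraries held 19.4, 17.9 and 25.1 FPKM of it, and the mrpl1-1 libraries 19.6, 12.0 and 18.6 FPKM. The groups overlapped, and the transcript level therefore gives no check of the label. A list of 10 loci held MRPL1 and those whose annotated product names a mitochondrial ribosomal protein, so such genes annotated otherwise are left out. Of the 10, 8 were measured, and none of these had an unadjusted p under 0.05 (limma), against 4.46% of all loci. AT5G40080, annotated as mitochondrial ribosomal protein L27, had the smallest p, at 10.4, 11.6 and 12.3 FPKM in wild type and 12.0, 21.7 and 14.2 FPKM in mrpl1-1. Its highest value was that of mrpl1-1 replicate 2.

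Few loci differed in mrpl1-1 by the test over all loci. With limma and Benjamini-Hochberg adjustment, 7 loci passed an adjusted p of 0.05, which is 0.0369% of those tested, 5 of them higher (0.0263%) and 2 lower (0.0105%). Of the 7, only 2 were above 0 in every library. At an unadjusted p under 0.05 there were 538 loci on the higher side (2.83%) and 310 on the lower side (1.63%). For 5.09% of the loci each mrpl1-1 library lay above each wild-type library, and for 5.04% each lay below. The median difference over all loci was -0.00, with 49.9% of loci above 0.

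**Figure D1:**
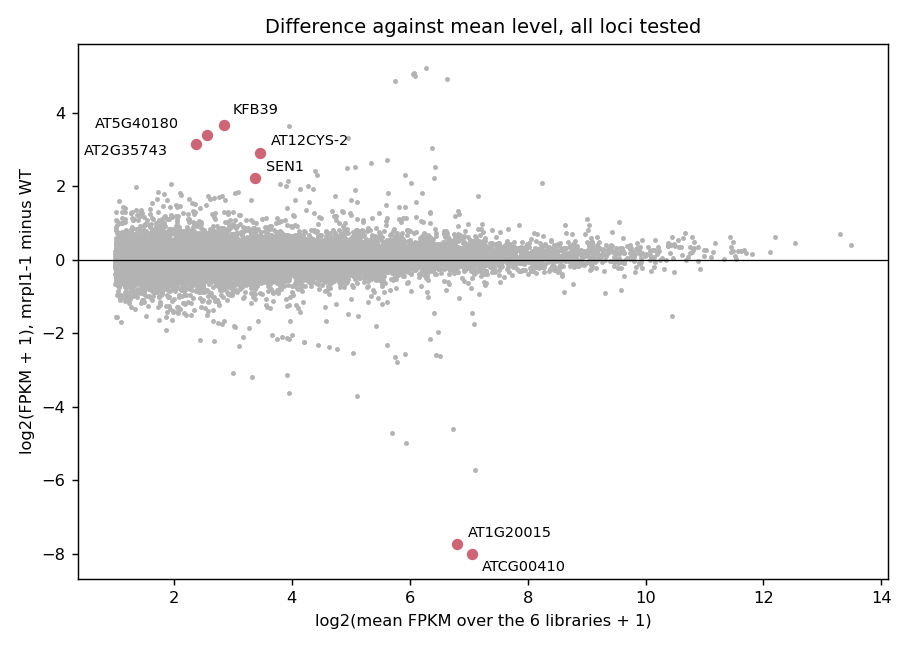
The log2(FPKM + 1) difference of each of the 18994 loci, mrpl1-1 minus wild type, against the log2 of its mean FPKM plus 1 over the 6 libraries. Grey points did not pass an adjusted p of 0.05 (limma) and the 7 red points did, 5 of them above 0 and the 2 others near -8.

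Among genes of the mitochondrial retrograde response, AT12CYS-2 (AT5G09570, chromosome 5, 2970498 to 2972222, 5 exons) was the member that passed the test over all loci. It encodes a small twin-cysteine protein of the Cox19-like CHCH family. Its FPKM was 1.59, 1.70 and 1.05 in wild type and 17.0, 27.7 and 10.9 in mrpl1-1. The lowest mutant library was far above the highest wild-type library. The log2 difference was 2.92 (SE 0.32; limma, adjusted p = 0.0289). The call was lost without wild-type replicate 1, 2 or 3 (adjusted p = 0.0794, 0.0794 and 0.0884) and without mrpl1-1 replicate 1 or 2 (0.169 and 0.115), while the difference stayed between 2.59 and 3.23. It was also lost with a pseudocount of 5 (0.0958), with no filter (0.140), with a filter of 5 FPKM (0.0510) and without the trend (0.0527). Without both wild-type replicate 3 and mrpl1-1 replicate 2 it was 2.47 (adjusted p = 0.139). AT12CYS-1 (AT5G64400), its paralogue, was abundant and overlapped between the groups, at 311, 323 and 276 FPKM in wild type and 331, 542 and 269 FPKM in mrpl1-1.

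This list and the others were chosen with earlier results of these data known, so their shares beside all loci are descriptions. Of 34 retrograde genes 27 were measured, with a median difference of 0.38. On the higher side lay 24 of the 27, against 49.9% of all loci. No overlap between the groups was seen for 6 members on the higher side (22.2%, against 5.09% of all loci) and for none on the lower side. Besides AT12CYS-2 these were ANAC013, NDB2, AT2G32020, CRF6 and ANAC053. ANAC013 (AT1G32870), a transcription factor of this response, was at 5.85, 4.58 and 6.84 FPKM in wild type and 8.93, 9.74 and 8.63 FPKM in mrpl1-1. NDB2 (AT4G05020), an external NAD(P)H dehydrogenase of the inner mitochondrial membrane, was at 8.73, 8.24 and 8.35 FPKM against 13.0, 13.9 and 10.8 FPKM. The wild-type libraries were close to each other for NDB2 and the mutant libraries all lay above them, yet neither gene passed the test over all loci (limma, adjusted p = 0.931 for ANAC013 and for NDB2). CRF6 (AT3G61630), a cytokinin response factor, was at 7.34, 3.66 and 6.11 FPKM in wild type and 7.98, 9.06 and 7.96 FPKM in mrpl1-1.

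Several markers of the response overlapped between the groups through wild-type replicate 3. AOX1A (AT3G22370), the alternative oxidase that takes electrons from ubiquinol past complexes III and IV, was at 22.6, 20.7 and 40.9 FPKM in wild type and 40.7, 39.2 and 38.7 FPKM in mrpl1-1. The third wild-type library was as high as the mutant ones. The difference was 0.54 (SE 0.25; limma, adjusted p = 0.931), and without wild-type replicate 3 it was 0.84 (adjusted p = 0.414). UPOX (AT2G21640), a marker of oxidative stress in mitochondria, was at 19.6, 7.93 and 31.8 FPKM against 31.1, 54.4 and 41.9 FPKM. AT2G41730 was at 19.3, 12.8 and 40.8 FPKM against 49.2, 55.7 and 38.3 FPKM. In both genes the highest wild-type value was that of replicate 3. The list median was 0.51 without wild-type replicate 3, 0.32 without mrpl1-1 replicate 2 and 0.44 without both.

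Other retrograde genes differed little or lay too low to test. UGT74E2 (AT1G05680), a glycosyltransferase of indole-3-butyric acid, was at 7.73, 2.23 and 11 FPKM in wild type and 3.86, 6.31 and 6.86 FPKM in mrpl1-1. CYP81D8 (AT4G37370), a cytochrome P450, was at 7.10, 4.01 and 12.2 FPKM against 6.60, 7.47 and 8.66 FPKM. ANAC017 (AT1G34190) was at 20.7, 19.9 and 14.6 FPKM against 19.6, 21.3 and 19.5 FPKM, so its groups overlapped. The 7 members below the filter were AOX1B, AOX1C, AOX1D, AOX2, NDB3, NDB4 and AT2G04070. NDB4 (AT2G20800), another external dehydrogenase, had 0.0608, 0 and 0 FPKM in wild type but 2.05, 1.4 and 0.838 FPKM in mrpl1-1. Each mutant library lay above each wild-type library for NDB4, which was not tested because its mean was under 1 FPKM.

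The same genes measured with doxycycline are given from the second table, in which the shared wild-type libraries carry values that differ by a factor of 0.941; the difference between drug and mutant was not tested. AT12CYS-2 was at 22.0, 25.4 and 10.9 FPKM with the drug, against 17.0, 27.7 and 10.9 FPKM in mrpl1-1. AOX1A was at 79.3, 59.1 and 71.4 FPKM with the drug. UGT74E2 was at 39.8, 30.7 and 27.7 FPKM with the drug, and CYP81D8 at 32.5, 22.1 and 22.9 FPKM. For the last 3 genes each doxycycline library lay above each mrpl1-1 library.

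The mitochondrial dysfunction motif, searched as CTTGNNNNNCAAG or CTTGNNNNNCACG on both strands of the 250 bases before the annotated start, was present for 7 of the 27 measured retrograde genes (25.9%) and for 314 of 26687 protein-coding loci (1.18%). The motif was described from genes of this response, so the overlap with the list is a description. The sites are shown with 15 bases on either side, because they set apart the genes that carry the motif of the NAC factors, and capitals mark the 13 bases of the motif. They were read from TAIR10.1 with the RefSeq annotation, 5′ to 3′ on the strand of the gene. The NDB2 site lies at chr4:2572333-2572375 (plus), the UPOX site at chr2:9254312-9254354 (plus) and the HSP23.5 site at chr5:20891038-20891080 (plus). AT2G04050, a MATE efflux protein, holds a pair of sites at chr2:1339656-1339698 and chr2:1339597-1339639 (both minus). The ANAC017 site, with the motif on the opposite strand, lies at chr1:12451280-12451322 (plus), the NDA1 site at chr1:2204019-2204061 (plus) and the CYP81D8 site at chr4:17571856-17571898 (minus).
NDB2: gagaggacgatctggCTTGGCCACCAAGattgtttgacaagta
UPOX: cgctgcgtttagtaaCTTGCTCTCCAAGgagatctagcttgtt
HSP23.5: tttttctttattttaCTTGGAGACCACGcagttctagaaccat
AT2G04050, distal: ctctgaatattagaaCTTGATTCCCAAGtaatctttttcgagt
AT2G04050, proximal: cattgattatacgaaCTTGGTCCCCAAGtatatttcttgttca
ANAC017: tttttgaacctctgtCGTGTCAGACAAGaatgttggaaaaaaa
NDA1: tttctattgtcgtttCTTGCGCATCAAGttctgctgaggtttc
CYP81D8: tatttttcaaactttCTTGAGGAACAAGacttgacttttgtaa
The differences of the 7 carriers in mrpl1-1 ran from 1.22 for UPOX (SE 0.43) to -0.08 for NDA1 (SE 0.23), an internal NAD(P)H dehydrogenase. HSP23.5 (AT5G51440), a mitochondrial chaperone of the small heat shock class, measured 8.01, 9.46 and 14.6 FPKM in wild type and 12.2, 20.3 and 14.2 FPKM in mrpl1-1, and the groups overlapped.

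AT12CYS-2, the retrograde gene that passed the test over all loci, had no such match in its window, nor had AOX1A. This says only that these letters are not in these 250 bases. ACGT is present in 44.2% of all protein-coding windows. It is in 63.0% of retrograde, 44.4% of starvation, 40.7% of salicylate and 66.7% of rapid stress factor windows. In the F-box and phenylpropanoid list its share is 50%. The window of AT12CYS-2 (chr5:2970248-2970497, plus) is shown as that of the gene with the largest difference in the list, with its 2 matches to ACGT in capitals.
AT12CYS-2: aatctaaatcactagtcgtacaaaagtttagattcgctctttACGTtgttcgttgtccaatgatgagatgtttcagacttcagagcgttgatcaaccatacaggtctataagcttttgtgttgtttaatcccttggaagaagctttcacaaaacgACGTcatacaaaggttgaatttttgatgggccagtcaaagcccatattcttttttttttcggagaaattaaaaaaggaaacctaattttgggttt

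Among genes of darkness and sugar starvation, SEN1 (AT4G35770, chromosome 4, 16944878 to 16946266, 2 exons), a senescence-associated gene induced by darkness, was the member that passed the test over all loci. It was at 1.63, 3.19 and 3.38 FPKM in wild type and 17.8, 14.7 and 15.7 FPKM in mrpl1-1. The mutant libraries were close together and all far above wild type. The difference was 2.22 (SE 0.24; limma, adjusted p = 0.0289), and the ratio of mean FPKM was 5.87. The call was lost without wild-type replicate 2 (adjusted p = 0.0763), without mrpl1-1 replicate 1, 2 or 3 (0.169, 0.245 and 0.117) and without both libraries that stood apart (0.178), with a difference of at least 1.99 in these and the other omissions of 1 library. It was also lost with the replicate number as a block (0.0940), with no filter (0.139), with a filter of 5 FPKM (0.0510) and without the trend (0.0527). In the doxycycline table SEN1 was at 7.59, 4.79 and 3.90 FPKM with the drug, below each mutant library.

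Of 29 starvation genes 27 were measured, with a median difference of 0.22 and library medians of 0.22, 0.23 and 0.21 in mrpl1-1 replicates 1, 2 and 3. For 10 members (37.0%, against 5.09% of all loci) each mutant library lay above each wild-type library. For 2 members (7.41%, against 5.04%) each lay below. The list was chosen with earlier results known, so these shares are descriptions. TPS8 (AT1G70290), a class II trehalose phosphate synthase protein, was at 13.0, 14.4 and 15 FPKM in wild type and 27.6, 21.7 and 27.0 FPKM in mrpl1-1. TPS11 (AT2G18700), of the same class, was at 4.33, 4.30 and 3.29 FPKM against 8.31, 7.73 and 7.87 FPKM. The groups were well apart for both, with differences of 0.80 (SE 0.17) and 0.86 (SE 0.19), but the adjusted p of TPS8 was 0.513 (limma). TPS9 (AT1G23870) was at 12.9, 14.5 and 12.7 FPKM against 18.1, 23.0 and 17.7 FPKM, while TPS10 (AT1G60140) overlapped at 11.1, 12.8 and 14.8 FPKM against 15.1, 12.4 and 13.1 FPKM. With doxycycline TPS8 was at 13.9, 15.2 and 12.9 FPKM, below each mutant library.

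PRODH1 (AT3G30775), the mitochondrial proline dehydrogenase, was at 43.9, 44.5 and 39.7 FPKM in wild type and 62.3, 84.4 and 70.6 FPKM in mrpl1-1. AKINBETA1 (AT5G21170), a regulatory subunit of SnRK1, was at 19.6, 23.0 and 17.6 FPKM against 29.6, 37.6 and 29.1 FPKM. DIN10 (AT5G20250), annotated in the raffinose synthase family, was at 87.6, 87.4 and 71.1 FPKM against 112, 102 and 147 FPKM. In these 3 genes the groups did not overlap, and none of them passed the test over all loci. DRM1 (AT1G28330), a dormancy-associated gene, was at 239, 317 and 329 FPKM against 585, 587 and 338 FPKM, so the third mutant library was barely above wild type. Its relative DRM2 (AT2G33830) overlapped, at 267, 267 and 410 FPKM against 420, 442 and 393 FPKM.

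Not all starvation genes lay on the higher side. DIN11 (AT3G49620), an oxidoreductase of the 2-oxoglutarate-dependent type, was at 16.9, 3.55 and 20.0 FPKM in wild type and 0.461, 0.942 and 3.48 FPKM in mrpl1-1. The highest mutant library and the lowest wild-type library nearly met, and the difference was -2.36 (SE 0.61). ASN1 (AT3G47340), the dark-induced asparagine synthetase, overlapped at 4.29, 7.59 and 4.14 FPKM against 8.23, 6.22 and 7.07 FPKM. Genes of branched-chain amino acid breakdown in mitochondria were mixed. BCAT1 (AT1G10060), a branched-chain aminotransferase, was at 5.58, 5.08 and 6.35 FPKM against 7.86, 7.65 and 7.69 FPKM, and MCCA (AT1G03090), a subunit of methylcrotonyl-CoA carboxylase, at 9.13, 8.01 and 6.66 FPKM against 10.1, 9.29 and 10.6 FPKM. The groups did not overlap in either, and neither passed the test (limma, adjusted p = 0.931 for both). IVD (AT3G45300), isovaleryl-CoA dehydrogenase, overlapped at 6.93, 10.0 and 13.1 FPKM against 6.97, 9.14 and 7.69 FPKM, as did ETFQO (AT2G43400), which passes electrons of this breakdown to ubiquinone, at 7.87, 6.60 and 7.0 FPKM against 5.02, 6.59 and 7.65 FPKM. BCAT2 and DIN2 were below the filter.

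The windows of the starvation genes were searched for TATCCA, an element of sugar-repressed amylase promoters in rice, and GGATA, which is part of the same letters on the other strand and so overlaps it. TATCCA was present for 9 of 27 (33.3%, against 13.7% of all protein-coding windows) and GGATA for 16 of 27 (59.3%, against 28.8%). In the retrograde, salicylate, rapid stress factor and F-box lists TATCCA was present for 14.8%, 18.5%, 22.2% and 16.7%. GGATA was present there for 25.9%, 29.6%, 33.3% and 36.7%. In all, 6 motifs were searched in 5 lists. TTGACC or TTGACT was present for 48.2% of retrograde, 25.9% of starvation, 18.5% of salicylate and 44.4% of rapid stress factor windows, against 28.5% of all, and CACGTG for 14.8%, 7.41%, 3.70% and 5.56%, against 6.57%. In the F-box and phenylpropanoid list these shares were 30% and 16.7%. The window of SEN1 (chr4:16944628-16944877, plus, TAIR10.1) is shown as that of the starvation gene that passed the test over all loci. Capitals mark its 2 matches to GGATA, both on the opposite strand. The window holds no TATCCA.
SEN1: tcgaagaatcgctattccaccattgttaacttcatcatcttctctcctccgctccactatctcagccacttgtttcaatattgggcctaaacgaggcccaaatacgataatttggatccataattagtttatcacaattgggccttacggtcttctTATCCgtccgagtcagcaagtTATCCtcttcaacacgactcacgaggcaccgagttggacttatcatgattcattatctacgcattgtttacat

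**Figure D2:**
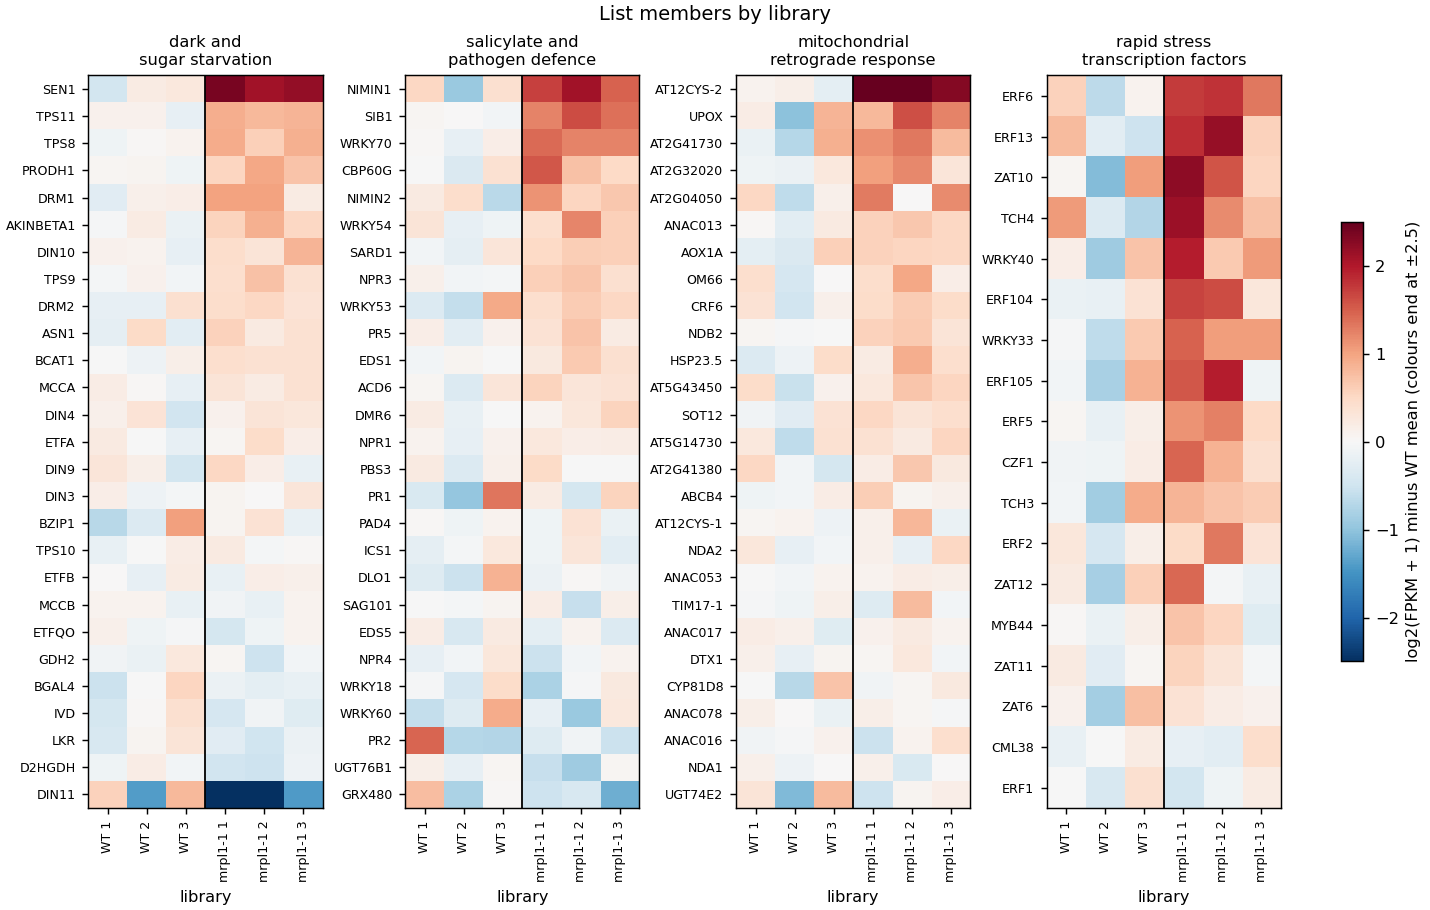
Each measured member of 4 lists in each library, coloured by log2(FPKM + 1) minus the wild-type mean of that gene; the colour scale ends at 2.5 on either side, and genes are ordered by their difference. AT12CYS-2 and SEN1 stand out in all 3 mutant libraries, and ZAT10 lies below the wild-type mean in wild-type replicate 2 and above it in wild-type replicate 3.

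Kelch repeat F-box proteins mark enzymes of phenylpropanoid synthesis for degradation and, as KISS ME DEADLY proteins, also regulators of cytokinin response. Their genes included a further locus that passed the test over all loci. AT2G44130 (KFB39, chromosome 2, 18253610 to 18255054, 1 exon) was listed at 0 in each wild-type library, with 9.21, 19.1 and 8.85 FPKM in mrpl1-1 (limma, adjusted p = 0.00761). It kept its call without any 1 library (adjusted p of 0.0302 or less), and without both libraries that stood apart (0.0364), but lost it with a pseudocount of 5 (0.0751) and with a filter of 5 FPKM (0.0916). With wild type at 0 throughout, leaving out any wild-type library could not move the difference from 3.66, so those omissions are no separate check. KFB39 passed the filter of 1 FPKM through the mutant libraries alone. KFB39 lies within AT2G44140, which is on the opposite strand and was at 7.59, 10.1 and 8.68 FPKM in wild type and 10.6, 10.9 and 9.89 FPKM in mrpl1-1. The sources used here do not say whether the authors' quantification used strand, so the values of the pair are uncertain. With doxycycline KFB39 was listed at 0 in each library.

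The other members of this F-box group did not pass the test. KFB-CHS (AT1G23390), which targets chalcone synthase, was at 33.5, 27.5 and 39.2 FPKM in wild type and 85.9, 127 and 92.8 FPKM in mrpl1-1, a difference of 1.57 (SE 0.21; limma, adjusted p = 0.0948). KFB20 (AT1G80440) was at 24.9, 23.8 and 47.6 FPKM against 105, 151 and 85.7 FPKM, a difference of 1.83 (SE 0.31; adjusted p = 0.344). In both genes the mutant libraries all lay above wild type, and replicate 2 was the highest. KFB50 (AT3G59940) overlapped at 49.3, 45.1 and 86.8 FPKM against 81.2, 90.9 and 65.0 FPKM, and KFB01 (AT1G15670) at 29.0, 27.3 and 36.9 FPKM against 31.1, 39.5 and 35.5 FPKM. With doxycycline KFB-CHS was at 39.1, 24.0 and 20.0 FPKM and KFB20 at 36.5, 22.4 and 18.0 FPKM, below each mutant library.

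Enzymes of the pathway overlapped between the groups, apart from PAL3 and F5H. PAL1 (AT2G37040), a phenylalanine ammonia-lyase, was at 110, 80.5 and 93.0 FPKM in wild type and 88.1, 80.6 and 103 FPKM in mrpl1-1. CHS (AT5G13930), chalcone synthase, was at 442, 271 and 296 FPKM against 258, 489 and 365 FPKM. PAL3 (AT5G04230) was at 9.02, 9.99 and 9.04 FPKM against 11.1, 14.2 and 12.8 FPKM, and F5H (AT4G36220), ferulate 5-hydroxylase, at 77.2, 60.6 and 84.2 FPKM against 60.6, 59.7 and 58.8 FPKM, a separation of less than the last digit shown. The list of F-box and pathway genes had a median of 0.05 over 30 measured members, and between -0.01 without mrpl1-1 replicate 2 and 0.15 without mrpl1-1 replicate 1.

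Salicylate signalling and pathogen defence had 27 measured genes. In 12 of them (44.4%, against 5.09% of all loci) each mutant library lay above each wild-type library, and in none the other way. None of the 27 passed the test over all loci. This list too was chosen with earlier results of these data known, so its share is a description. SIB1 (AT3G56710), a sigma factor binding protein that also partners WRKY33 in defence, was at 7.48, 7.27 and 6.75 FPKM in wild type and 18.2, 24.2 and 20.3 FPKM in mrpl1-1. Its difference was 1.41 (SE 0.17; limma, adjusted p = 0.0687). The call was made with quantile normalization (adjusted p = 0.0405), robust moderation (0.0474) and array weights (0.0163), and was not made in the other 17 of 20 alternatives (adjusted p up to 0.346). WRKY70 (AT3G56400), a factor that acts between salicylate and jasmonate signalling, was at 47.1, 39.6 and 51.9 FPKM against 125, 110 and 110 FPKM, and its relative WRKY54 (AT2G40750) at 11.8, 7.87 and 8.45 FPKM against 12.7, 22.9 and 14.5 FPKM. For SIB1 and WRKY70 the lowest mutant library was far above the highest wild-type one. With doxycycline SIB1 was at 9.05, 11.4 and 12.3 FPKM and WRKY70 at 55.0, 56.3 and 53.5 FPKM, below each mutant library.

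Receptors and regulators of the hormone were among the members whose groups did not overlap. NPR3 (AT5G45110), a salicylate receptor, was at 6.85, 5.83 and 5.90 FPKM in wild type and 9.89, 10.7 and 8.52 FPKM in mrpl1-1. NIMIN1 (AT1G02450), which binds NPR1, was at 1.73, 0 and 1.53 FPKM against 5.24, 7.14 and 4.28 FPKM. CBP60G (AT5G26920), a regulator of salicylate synthesis, was at 3.34, 2.38 and 4.70 FPKM against 11.8, 6.28 and 5.14 FPKM, with the first mutant library the highest. EDS1 (AT3G48090), a lipase-like defence regulator, was at 9.02, 9.99 and 9.47 FPKM against 11.4, 15.5 and 12.8 FPKM.

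The synthesis enzyme and the classic output genes overlapped. ICS1 (AT1G74710), isochorismate synthase, was at 2.69, 3.16 and 4.2 FPKM in wild type and 3.01, 4.30 and 2.57 FPKM in mrpl1-1. PR1 (AT2G14610) was at 11.7, 7.50 and 40.9 FPKM against 18.2, 11.2 and 23.2 FPKM, with its highest value in wild-type replicate 3. PR2 (AT3G57260) was at 14.8, 2.53 and 2.48 FPKM against 3.64, 4.46 and 2.97 FPKM, with its highest value in wild-type replicate 1. The list median was 0.20, between 0.11 and 0.37 on leaving out each library in turn, and 0.32 without both libraries that stood apart.

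**Figure D3:**
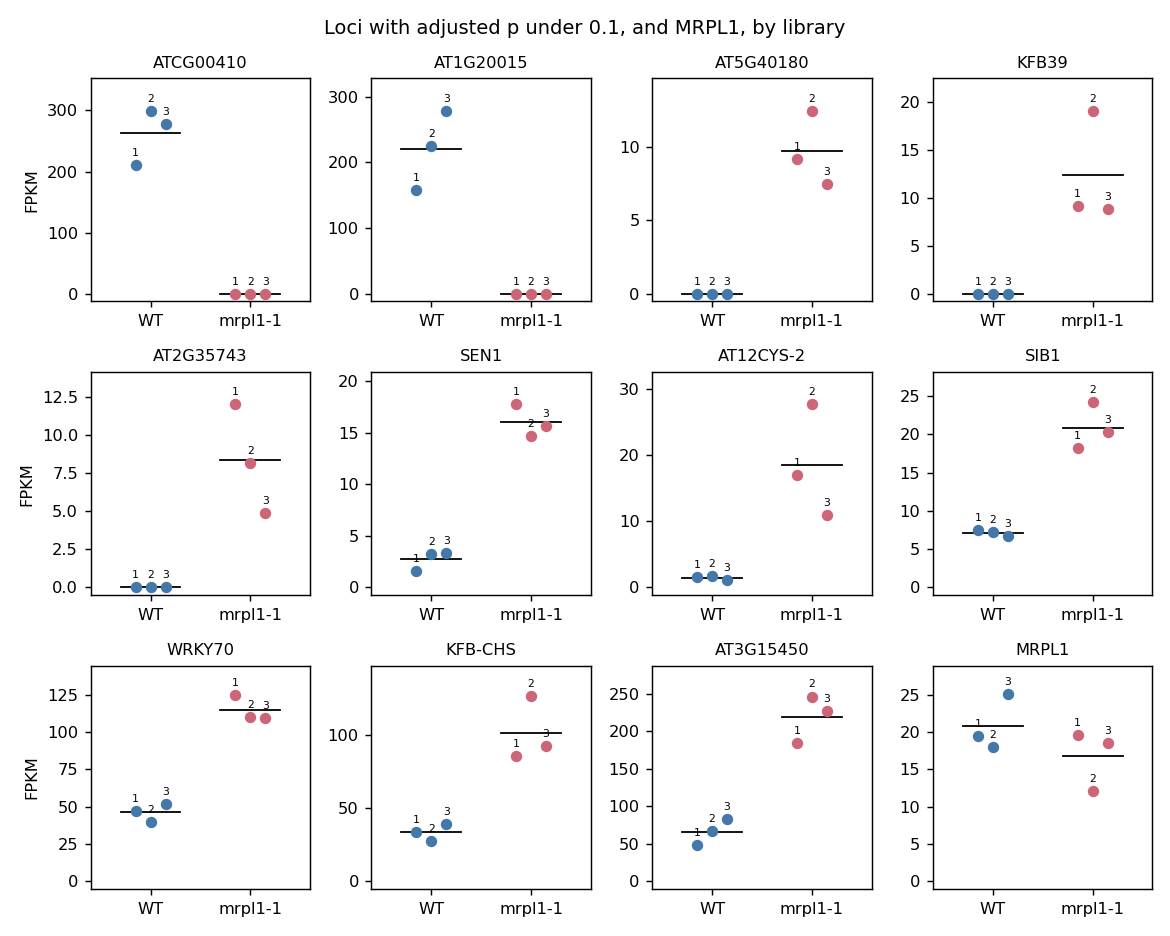
FPKM of the 11 loci with an adjusted p under 0.1 (limma) and of MRPL1 in each library, on a linear axis; numbers are replicates and lines are group means. In the first 11 panels the groups do not overlap, and 5 of those loci are listed at 0 in every library of 1 group, while MRPL1 overlaps.

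Rapidly induced stress transcription factors had the largest list median, 0.93 over 18 of 20 genes, with library medians of 1.45, 0.96 and 0.41 in mrpl1-1 replicates 1, 2 and 3. None passed the test over all loci. An unadjusted p under 0.05 (limma) on the higher side was seen for 10 (55.6%, against 2.83% of all loci). The groups did not overlap for 5 on the higher side (27.8%, against 5.09%) and for none on the lower side. This list was also chosen with earlier results known, so these shares are descriptions. ERF6 (AT4G17490), an ethylene response factor, was at 6.04, 1.99 and 4.0 FPKM in wild type and 14.8, 15.6 and 10.7 FPKM in mrpl1-1, a difference of 1.62 (SE 0.32; limma, adjusted p = 0.388). ERF5 (AT5G47230) was at 4.35, 3.53 and 4.72 FPKM against 10.3, 11.4 and 6.29 FPKM, and WRKY33 (AT2G38470) at 14.3, 9.04 and 23.5 FPKM against 42.1, 31.3 and 31.1 FPKM. These 3 factors did not overlap between the groups. ZAT10 (AT1G27730), a zinc finger repressor, did overlap, at 26.5, 11.5 and 53.9 FPKM against 124, 77.6 and 37.6 FPKM. With doxycycline ERF6 was at 5.60, 2.83 and 4.12 FPKM. The median was between 0.75 and 1.18 on leaving out each library in turn.

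**Figure D4:**
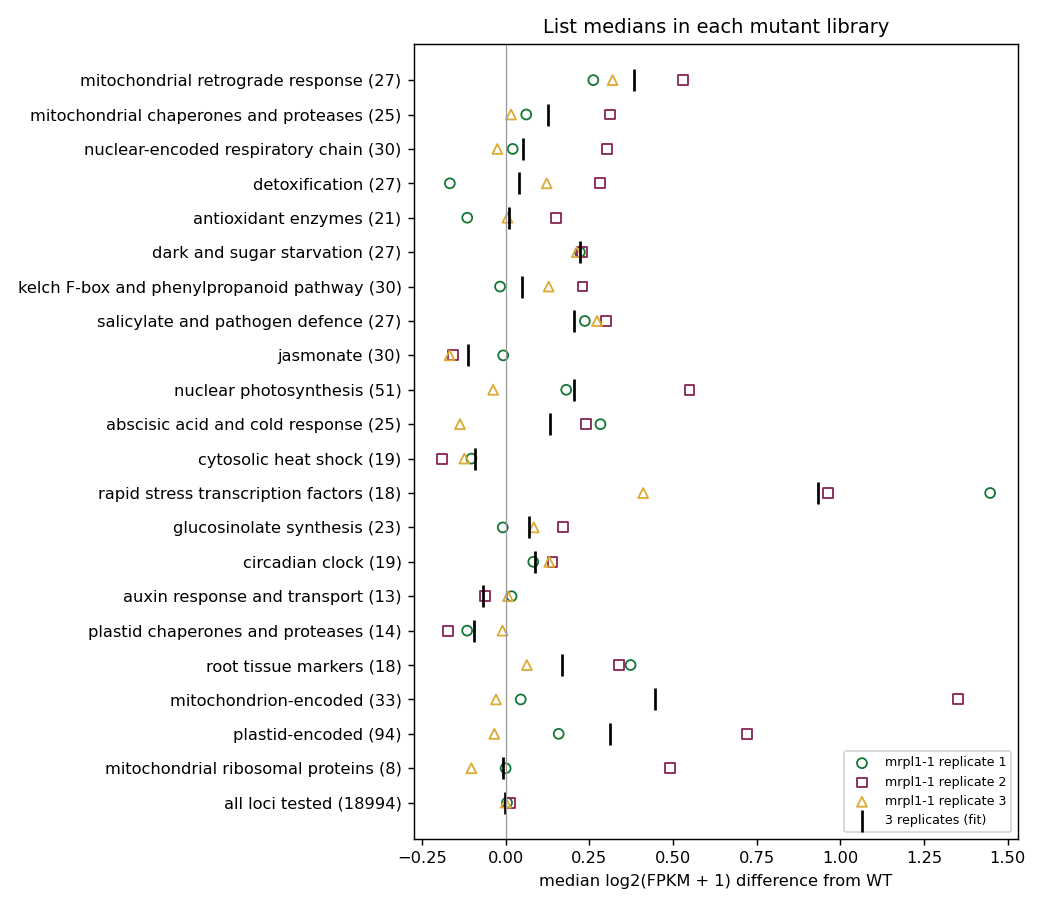
Median log2(FPKM + 1) difference from wild type of each list (number of measured members in brackets) in each mutant library (open symbols) and in the fit of all 3 (black bars). The starvation medians coincide at 0.21 to 0.23, whereas mitochondrion-encoded loci lie at 1.35 in replicate 2 and at 0.04 and -0.03 in the others.

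Outside the lists, the higher loci with the smallest p included AT3G15450, annotated as an aluminium-induced protein with YGL and LRDR motifs, at 48.1, 66.3 and 83.2 FPKM in wild type and 184, 246 and 226 FPKM in mrpl1-1 (difference 1.74, SE 0.23; limma, adjusted p = 0.0948). AT4G27450, annotated with the same family, stood on the lower side, at 48.4, 64.4 and 61.8 FPKM against 28.8, 26.3 and 27.3 FPKM (difference -1.05, SE 0.17; adjusted p = 0.340). BT1 (AT5G63160), a BTB and TAZ domain protein, was at 30.5, 34.2 and 39.0 FPKM against 63.9, 89.9 and 73.4 FPKM. AT3G46600, a GRAS family factor, was at 20.0, 15.4 and 17.2 FPKM against 35.5, 39.6 and 32.5 FPKM, and AT3G16670, of the Ole e 1 and extensin family, at 21.5, 34.2 and 21.1 FPKM against 65.7, 58.3 and 60.1 FPKM. The groups of each of these 5 loci were separate.

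Of 30 detoxification genes 27 were measured, with a median of 0.04, and 1 of these had an unadjusted p under 0.05 on the higher side (3.70%, against 2.83% of all loci). This was GSTU25 (AT1G17180), a tau-class glutathione transferase with a near-identical neighbour, at 7.01, 7.25 and 12.7 FPKM against 20.9, 23.8 and 20.1 FPKM, a difference of 1.22 (SE 0.23; limma, adjusted p = 0.388). With doxycycline it was at 94.0, 83.1 and 53.5 FPKM. The list median was between -0.12 without wild-type replicate 2 and 0.17 without mrpl1-1 replicate 1.

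On the lower side no protein-coding nuclear gene passed the test. AT5G35940, a mannose-binding lectin family gene, was at 8.79, 9.22 and 6.37 FPKM in wild type and 2.92, 1.99 and 2.71 FPKM in mrpl1-1 (difference -1.36, SE 0.22; limma, adjusted p = 0.340). AT1G47400, which the annotation used here lists as an uncharacterised protein, was at 18.6, 7.80 and 14.5 FPKM against 0.946, 2.58 and 3.86 FPKM. Its difference was -2.10 (SE 0.40, limma, adjusted p = 0.383), and with doxycycline it was at 3.15, 2.80 and 2.94 FPKM. Both the mutant and the doxycycline libraries of AT1G47400 lay below each wild-type library of their table. XTH18 (AT4G30280), a cell wall xyloglucan endotransglucosylase/hydrolase, was at 10.2, 7.43 and 9.81 FPKM against 3.90, 5.11 and 3.68 FPKM. The other 6 lower loci that the rule named, AT2G16367, AT4G39675, AT1G05340, AT1G19530, AT5G20790 and AT2G28440, had differences no further from 0 than -1.28 (AT1G19530).

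The remaining 4 called loci were each listed at 0 in every library of 1 group, and no fold is given for them. Each passed the filter of 1 FPKM through its other group alone, as KFB39 did. The group at 0 has no spread, so their adjusted p values are descriptions. AT5G40180, of the Pmr5/Cas1p acyl-esterase family, had no value above 0 in wild type and 9.17, 12.5 and 7.50 FPKM in mrpl1-1 (limma, adjusted p = 0.00378; 0.0558 without both libraries that stood apart). With doxycycline it was listed at 0, 4.53 and 0 FPKM. The transcribed pseudogene AT2G35743 (180 nt) was listed at 0 against 12.0, 8.19 and 4.91 FPKM (adjusted p = 0.0239), and lost its call without wild-type replicate 1, 2 or 3 (0.0634, 0.0763 and 0.0679) or mrpl1-1 replicate 1 or 2 (0.108 and 0.263). With wild type at 0 throughout, its difference stayed at 3.15 without any 1 wild-type library. Those wild-type omissions are no separate check. AT2G35743 also lost its call without both libraries that stood apart (0.346), with the replicate number as a block (0.0546), with a pseudocount of 5 (0.0958) and with no filter (0.0685). Wild-type libraries held 158, 225 and 279 FPKM of AT1G20015, a small nucleolar RNA of 89 nt, and each mutant library listed it at 0. In wild type given doxycycline AT1G20015 was listed at 0, 67.4 and 0 FPKM, so zeros were not confined to mrpl1-1. The plastid locus ATCG00410 had 210, 300 and 278 FPKM in wild type, and each mutant library listed it at 0 too. Other plastid loci were listed at 0 in some libraries of a group and at over 100 FPKM in others. ATCG00460 had 272, 186 and 0 FPKM in mrpl1-1 with each wild-type library at 0, and ATCG00450 had 0, 286 and 531 FPKM in wild type with each mutant library at 0. Doxycycline replicates 2 and 3 were also at 0 for ATCG00410.

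The RNA was polyA-enriched, and how well it represents organelle transcripts was not tested. Organelle-encoded loci had their highest median in mrpl1-1 replicate 2. The median of 33 measured mitochondrion-encoded loci of 146 was 0.45, and -0.03 without that library; its values for each library were 0.04, 1.35 and -0.03. ATMG00110 was at 2.56, 0.999 and 1.86 FPKM in wild type and 7.26, 6.19 and 3.46 FPKM in mrpl1-1, and ATMG00080 at 7.80, 5.36 and 9.96 FPKM against 12.8, 24.6 and 12.9 FPKM, with no overlap in either. ATMG01130 was on the lower side, at 4.02, 6.89 and 12.8 FPKM against 2.09, 0 and 0.853 FPKM. No overlap was seen for 5 of the 33 on the higher side (15.2%, against 5.09% of all loci). On the lower side there was 1 (3.03%, against 5.04%). Plastid-encoded loci had a median of 0.31 over 94 of 133, and 0.05 without mrpl1-1 replicate 2. Nuclear photosynthesis genes had a median of 0.20, 0.07 without that library and 0.38 without mrpl1-1 replicate 3, with library medians of 0.18, 0.55 and -0.04. None of these 51 separated the groups, against 5.09% of all loci on the higher side and 5.04% on the lower side. LHCB1.4 (AT2G34430), a light-harvesting protein of photosystem II with near-identical copies that make its value uncertain, was at 385, 454 and 155 FPKM against 805, 925 and 366 FPKM. The length trend of mrpl1-1 replicate 2 is given above, and its part in these medians was not tested.

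Nuclear genes of the respiratory chain had a median of 0.05 over 30 members, none with an unadjusted p under 0.05 (limma), against 4.46% of all loci. No overlap was seen for 3 of the 30 on the higher side (10%, against 5.09% of all loci) and for none on the lower side. The list median was 0.01 without mrpl1-1 replicate 2, up to 0.12 on leaving out another library, and -0.01 with quantile normalization. EMB1467 (AT5G37510), a subunit of complex I, was at 70.1, 70.0 and 62.3 FPKM in wild type and 78.6, 116 and 72.7 FPKM in mrpl1-1. Its groups did not overlap, and replicate 2 was the highest. Mitochondrial chaperones and proteases had a median of 0.13, and 0.06 without mrpl1-1 replicate 2. PHB1 (AT4G28510), a prohibitin of the inner membrane, was at 31.1, 33.9 and 32.4 FPKM against 39.3, 51.2 and 40.0 FPKM, so its groups did not overlap. In that list no overlap was seen for 2 of 25 members on the higher side (8%, against 5.09% of all loci). On the lower side there were also 2 (8%, against 5.04%).

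Root tissue markers had a median of 0.17, with 5 of 18 measured members (27.8%, against 5.09% of all loci) at higher levels in each mutant library. These markers were also chosen with earlier results known, so the share is a description. PHT1-1 (AT5G43350), a phosphate transporter with close relatives, was at 35.6, 35.3 and 34.5 FPKM in wild type and 63.8, 63.4 and 39.8 FPKM in mrpl1-1. EXPA7 (AT1G12560), an expansin of root hairs, was at 7.65, 7.90 and 8.11 FPKM against 10.7, 11.2 and 10.2 FPKM, and with doxycycline at 4.22, 6.34 and 3.80 FPKM. IRT1 (AT4G19690), the root iron transporter, overlapped at 15.1, 1.19 and 0.662 FPKM against 0.432, 2.36 and 0.530 FPKM. None of the markers passed the test over all loci. The part of root tissue in the other differences was not tested.

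The other lists had medians between -0.11 for jasmonate genes and 0.13 for abscisic acid and cold genes. The jasmonate median was -0.02 without wild-type replicate 1 and -0.30 without wild-type replicate 2, and the abscisic acid and cold median was -0.02 without mrpl1-1 replicate 1 and 0.23 without wild-type replicate 3. LOX2 (AT3G45140), the lipoxygenase of jasmonate synthesis, was at 743, 385 and 495 FPKM in wild type and 346, 321 and 328 FPKM in mrpl1-1, and RD20 (AT2G33380), a caleosin induced by drought, at 6.70, 4.23 and 6.83 FPKM against 3.68, 2.05 and 3.01 FPKM. The groups did not overlap in either gene. Such lower members were 2 of 30 jasmonate genes (6.67%) and 2 of 25 abscisic acid and cold genes (8%), against 5.04% of all loci. On the higher side there were 1 (3.33%) and 0, against 5.09%. In the abscisic acid and cold list 16 of 25 genes had a difference above 0, opposite to RD20, against 49.9% of all loci. HSP17.6B (AT2G29500), a small cytosolic heat shock protein, was at 6.48, 5.17 and 6.57 FPKM against 3.46, 2.36 and 3.84 FPKM, in a list with a median of -0.09. No overlap was seen for 3 of its 19 members on the lower side (15.8%, against 5.04% of all loci). On the higher side there was 1 (5.26%, against 5.09%). MYB34 (AT5G60890), a regulator of indole glucosinolates, was at 27.5, 22.9 and 30.1 FPKM against 19.6, 10.0 and 16.6 FPKM. FSD1 (AT4G25100) and FSD2 (AT5G51100), iron superoxide dismutases, stood on opposite sides, FSD1 at 579, 739 and 563 FPKM against 777, 1202 and 866 FPKM and FSD2 at 46.2, 45.4 and 60.3 FPKM against 37.0, 40.7 and 36.8 FPKM. None of these genes passed the test over all loci.

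The count of 7 called loci moved with the libraries used. It was 5 without mrpl1-1 replicate 2, 9 without wild-type replicate 3, and 7 without both, of which 3 were among the 7 called in all libraries. Without mrpl1-1 replicate 3 it was 11, and array weights, which lower the weight of libraries that stand apart, gave 18.

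**Figure D5:**
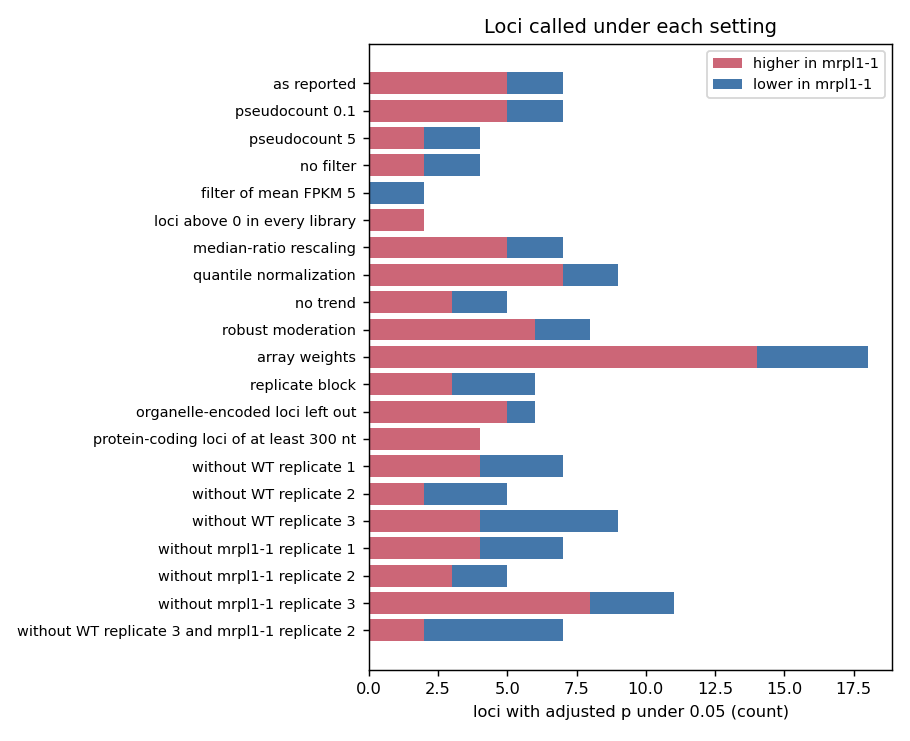
Number of loci with an adjusted p under 0.05 (limma) under each setting, divided into higher and lower in mrpl1-1. The count lies between 2 and 18, with 7 as reported.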

How the data were processed

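The deposited values are FPKM, made by the authors; the submitters' processing notes list TAIR10 as build, Cufflinks 2.2.1 and FastQC 0.10.1 without saying what each did, and name neither an aligner nor the use of strand. A few reads on a short transcript give a high FPKM, and an exact 0 can be a failed estimate; such loci are described as listed at 0. All sample columns were matched by name (0 left unmapped). Loci averaging 1 FPKM or more were fitted as log2(FPKM + 1) with limma 3.58.1 in R 4.3.3 (trend in the prior variance, Benjamini-Hochberg adjustment over all 18994 loci, threshold 0.05), with groups from the labels and no covariate. No count test was run, because reads could be recovered only roughly: 49.9% to 55.9% of ratios between low values were ratios of whole numbers within a tolerance of 0.005 (2.12% to 2.90% at wrong steps), and depths rest on RefSeq lengths. On simulated data with 100 loci changed 2-fold and 100 changed 4-fold, with 18994 loci and the spread of this comparison, 16 and 86 were recovered with 7 false calls.

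The named loci are MRPL1 and AOX1A, every called locus, the 10 smallest p in each direction among loci above 0 in all 6 libraries whose groups do not overlap and whose higher group averages 5 FPKM or more, and the 2 smallest p of each list; other list members were chosen after their values were seen. The 21 lists, the members and the tests were chosen with earlier results of these data known. The locus of MRPL1 was taken from background knowledge. Symbols, lengths, coordinates and sequences are from RefSeq's TAIR10.1 annotation (32810 loci matched, 747 did not); symbols it lacks came from the lists. Alternatives were other pseudocounts, filters and scalings, limma without trend, with array weights or robust moderation, a block for the replicate number, organelle loci or short and noncoding loci left out, and libraries left out.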

Additional observations from a re-analysis of the deposited data

How the results depend on the processing

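The 7 calls became 4 with a pseudocount of 5, 4 with no filter, 2 with a filter of 5 FPKM, 2 among loci above 0 in every library, 4 among protein-coding loci of at least 300 nt (these last 3 test fewer loci) and 18 with array weights; leaving out 1 library gave 5 to 11. The causes were not otherwise tested. Other settings gave 5 to 9. With the replicate number as a block there were 6 calls, 5 of them shared. Deviations of same-numbered libraries from their group means correlated at -0.08, 0.03 and -0.07. Those of libraries with unlike numbers correlated at between -0.04 and 0.12. The deviations of a group sum to 0 at each locus, so these values cannot show whether same-numbered libraries were handled together. The difference of MRPL1 changed sign without both libraries that stood apart, to 0.0285 (limma, adjusted p = 0.987); the cause was not tested. The retrograde, starvation, salicylate, rapid stress factor, root and photosynthesis medians stayed above 0, and the jasmonate and heat shock medians below 0, in all 20 alternatives. Depth of 3.03 M reads in the shallowest library limits loci of low FPKM, and 3 libraries a group limit the test: the recovery of 2-fold changes was 16 of 100 in simulated data.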
